A study of Mus musculus and Homo sapiens with 10 samples.

Results

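The genes described here build the keratin network and the microvilli of the intestinal absorptive cell. They are 10 of 21887 annotated protein-coding genes of GRCm38, chosen by name: the keratins Krt8, Krt18, Krt19 and Krt20, and the brush border genes Vil1, Ezr, Myo1a, Espn, Pls1 and Eps8. Their RefSeq gene bodies were read in 6 sBLISS libraries of mouse jejunal enterocytes sorted on Cd73, the surface enzyme encoded by Nt5e, into negative, mid and high gates with 2 libraries each, labelled M1 and M2. In-suspension BLISS (sBLISS) ligates an adapter to the blunted end of each DNA double-strand break, so every value below counts break ends in genomic DNA and is not a level of expression. No genotype, strain, age or treatment is given in the labels, and none says whether M1 and M2 are separate mice, so the p-values cover no more than the spread among these 6 libraries, which may be technical.

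Keratins 8, 18, 19 and 20 are the intermediate filament proteins of simple epithelium: a type II keratin (Krt8) pairs with a type I partner (Krt18, Krt19 or Krt20), and the filaments anchor at desmosomes and beneath the apical surface. A microvillus is a finger of membrane around a core of parallel actin filaments, which villin (Vil1), espin (Espn) and plastin 1 (Pls1, fimbrin) bundle and Eps8 caps at the tip. Ezrin (Ezr) and the motor myosin 1a (Myo1a) tie that core to the membrane. Cd73 is known to mark enterocytes towards the villus tip.

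Depth fell with the gate. The libraries held 13043514 and 12585228 break ends on the main chromosomes in the negative gate, 4757961 and 5160171 in the mid gate, and 1522615 and 1272771 in the high gate, so gate and depth cannot be told apart from these counts alone. The mean break density over all 21263 listed promoter windows also fell from gate to gate, with overlap between libraries, at 2.97 and 3.45 break ends per kb per 1000000 in the negative, 2.28 and 3.01 in the mid, and 2.27 and 2.004 in the high libraries; their part in the results below was not tested. Every cell carries every gene, so marker genes cannot check the labelled cell type here. The 12 enterocyte marker genes had a median break density of 0.872 break ends per kb per 1000000 in the negative gate, beside 0.464 for 6 goblet, 0.914 for 6 enteroendocrine and 0.39996 for 6 lymphocyte genes. The summed break ends of the lymphocyte genes were 65.2 and 50.6 per 1000000 in the negative, 58.2 and 55.6 in the mid, and 78.2 and 65.2 in the high libraries. None was without a break end in the high gate. In high against negative, 5 of 6 had a log2 fold change above 0, against 8846 of 17809 bodies. Above 0 were also 5 of 6 tuft, 5 of 12 enterocyte, 3 of 5 tested goblet, 2 of 2 tested Paneth, 2 of 6 enteroendocrine and 1 of 6 stromal genes. The median was 0.67 for the lymphocyte and -0.04 for the enterocyte genes. By edgeR, unadjusted p was under 0.05 for 6 of 12 enterocyte, 2 of 6 lymphocyte, 2 of 6 tuft and 1 of 5 goblet genes. It was so for 0 genes of the other lists and for 8.75% of all bodies. At an adjusted p of 0.05, 0 of these marker genes passed. The part of these marker genes in the results was not tested.

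The promoters show where single breaks fell. Each sequence is the 300-base RefSeq window (GRCm38.p6) from 250 bases before to 50 bases after an annotated start, 5′ to 3′ on the gene's strand, and capitals mark bases with a break end in at least 1 of the 6 libraries. Such windows were listed for 8 of the 10 genes, and Krt19 and Eps8 had none. Krt18 and the innermost of 3 listed Espn starts are shown because they held the most breaks among these windows, Ezr, Krt8 and Pls1 as windows with fewer, and Myo1a as the window with the fewest.
Krt18 (chr15:102027966-102028265, plus strand): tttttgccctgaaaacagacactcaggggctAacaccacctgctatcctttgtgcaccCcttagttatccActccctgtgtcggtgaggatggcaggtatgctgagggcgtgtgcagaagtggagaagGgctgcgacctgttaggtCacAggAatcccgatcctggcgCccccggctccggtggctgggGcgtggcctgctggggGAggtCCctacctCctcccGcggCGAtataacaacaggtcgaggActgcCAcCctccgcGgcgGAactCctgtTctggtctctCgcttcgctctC
Espn, innermost start (chr4:152128876-152129175, minus strand): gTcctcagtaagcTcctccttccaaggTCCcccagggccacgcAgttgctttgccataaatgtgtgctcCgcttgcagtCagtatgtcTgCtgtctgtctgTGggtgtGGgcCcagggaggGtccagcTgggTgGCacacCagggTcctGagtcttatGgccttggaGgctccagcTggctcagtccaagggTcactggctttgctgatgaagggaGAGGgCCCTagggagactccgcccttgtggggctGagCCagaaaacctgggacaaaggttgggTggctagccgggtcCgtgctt
Ezr (chr17:6782731-6783030, minus strand): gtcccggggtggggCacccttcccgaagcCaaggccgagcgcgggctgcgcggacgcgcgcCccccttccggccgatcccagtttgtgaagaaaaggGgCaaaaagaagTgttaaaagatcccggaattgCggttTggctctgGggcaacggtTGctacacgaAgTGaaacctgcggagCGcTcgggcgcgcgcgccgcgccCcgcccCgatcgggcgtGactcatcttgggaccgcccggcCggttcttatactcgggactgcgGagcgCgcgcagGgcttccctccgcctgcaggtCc
Krt8 (chr15:102004293-102004592, minus strand): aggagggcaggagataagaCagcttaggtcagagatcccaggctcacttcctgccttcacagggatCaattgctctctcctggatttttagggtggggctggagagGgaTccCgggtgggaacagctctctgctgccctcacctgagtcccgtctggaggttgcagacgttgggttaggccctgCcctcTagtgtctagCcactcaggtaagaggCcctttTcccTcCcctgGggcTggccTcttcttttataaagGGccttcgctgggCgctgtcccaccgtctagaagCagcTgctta
Pls1 (chr9:95845230-95845529, minus strand): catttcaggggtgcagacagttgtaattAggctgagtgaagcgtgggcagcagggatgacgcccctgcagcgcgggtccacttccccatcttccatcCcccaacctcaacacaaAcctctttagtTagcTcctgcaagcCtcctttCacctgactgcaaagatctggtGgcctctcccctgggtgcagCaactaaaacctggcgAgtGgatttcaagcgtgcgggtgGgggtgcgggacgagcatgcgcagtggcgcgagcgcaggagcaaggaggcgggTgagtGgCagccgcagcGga
Myo1a (chr10:127705006-127705305, plus strand): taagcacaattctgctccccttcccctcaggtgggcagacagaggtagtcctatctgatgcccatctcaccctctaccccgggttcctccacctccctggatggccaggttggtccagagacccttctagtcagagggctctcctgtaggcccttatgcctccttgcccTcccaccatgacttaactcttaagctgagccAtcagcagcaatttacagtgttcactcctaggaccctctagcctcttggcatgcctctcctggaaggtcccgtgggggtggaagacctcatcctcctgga

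In the Krt18 window, 81 break ends lay at 29 positions, with 22 and 32 in the negative, 4 and 20 in the mid, and 2 and 1 in the high libraries. The innermost Espn window held 95 break ends at 40 positions, with 32 and 25 in the negative, 16 and 13 in the mid, and 5 and 4 in the high libraries. They were picked for their many breaks, and ranked at percentiles 85.3 and 86.5 of all listed promoters in the negative gate. Ezr ranked at 77.1, Krt8 at 64.2, Vil1 at 55.6 and Krt20 at 43.0. Pls1 and the other Espn starts ranked at 52.6. The Espn capitals run through the whole innermost window while those of Krt18 crowd towards the start. The Ezr window held 49 break ends at 25 positions and the Krt8 window 34 at 20. The Pls1 window held 23 at 16. The Myo1a window held 2 break ends in all, 1 in a negative and 1 in a mid library, at percentile 14.4. The only listed Myo1a start lies 1820 bases inside the RefSeq body. This window is therefore within the body and not at its edge.

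Short motifs were searched on both strands of the 10 windows of these 8 genes. The TATA box letters TATAAA occurred in 2 windows, at base -29 from the start in Krt20 and at -3 and -1 in Krt8, against 12.6% of all 21263 windows. The AP-1 site letters TGANTCA occurred in 1 window, at -32 in Ezr, against 6.99%. The GC box letters GGGCGG occurred in 4 windows, those of Vil1, Ezr and 2 Espn starts, against 46.2%. A match here is a match of letters only.

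The 4 keratin bodies are short and rest on few break ends. Krt8 (chr15:101996711-102004342) had break densities of 1.27 and 1.75 break ends per kb per 1000000 of the library in the negative gate, 0.909 and 1.55 in the mid gate, and 0.947 and 0.721 in the high gate, from 126, 168, 33, 61, 11 and 7 break ends. Both high libraries lay below both negative ones, and the mid gate spanned the gap. Krt18 (chr15:102028216-102032026), which begins 23873 bases beyond the end of Krt8, had 0.443 and 1.04 in the negative, 0.938 and 0.966 in the mid, and 0.862 and 0.412 in the high gate, from 22, 50, 17, 19, 5 and 2 break ends. Its 2 negative libraries differed by 2.36 times, more than any difference between its gate means.

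Krt19 (chr11:100140810-100145926) had 1.42 and 1.99 break ends per kb per 1000000 in the negative, 1.19 and 1.82 in the mid, and 1.80 and 0.461 in the high gate. Its high libraries held 14 and 3 break ends and enclosed the values of the other 4 libraries apart from the negative M2 and mid M2 libraries, which lay above. Krt20 (chr11:99428385-99438153), a keratin of differentiated villus cells, had 0.785 and 0.724 in the negative, 0.581 and 0.793 in the mid, and 0.269 and 0.885 in the high gate. Its high libraries, with 4 and 11 break ends, enclosed all the others. Reads of Krt8 and its like could be shared with near-identical pseudogene copies, and how the authors placed such reads is not given in the sources used here.

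Among the filament bundlers, Espn (chr4:152120331-152152414) had the highest mean density of the 10 genes in each gate. Its values were 1.60 and 1.99 break ends per kb per 1000000 in the negative, 1.56 and 1.87 in the mid, and 1.29 and 1.37 in the high gate, and the high libraries lay below the other 4. It ranked between percentiles 92.8 and 96.3 of all genes in every library. Vil1 (chr1:74409384-74435560) had 0.855 and 0.747 in the negative, 0.739 and 0.703 in the mid, and 0.753 and 0.510 in the high gate, with overlap between the gates. Pls1 (chr9:95752642-95845306) had 0.884 and 0.847, then 0.712 and 0.770, then 0.631 and 0.772, and in this unscaled density both its mid and its high libraries lay below the negative ones. In CPM scaled with TMM factors the high M2 library (152.1) lay above the negative M2 library (147.7).

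Eps8 (chr6:137477245-137649397), the longest of the 10 bodies at 172.153 kb, had 0.704 and 0.666 break ends per kb per 1000000 in the negative, 0.637 and 0.618 in the mid, and 0.641 and 0.612 in the high gate. With 1581, 1443, 522, 549, 168 and 134 break ends it was the best counted member. The membrane linkers lay higher. Ezr (chr17:6738131-6782780) had 1.15 and 1.22 in the negative, 1.02 and 1.09 in the mid, and 1.01 and 0.827 in the high gate, and the mid and high libraries lay below the negative ones. In CPM scaled with TMM factors its mid and high gates overlapped, with 93.9 and 94.5 in the mid and 94.5 and 78.6 in the high libraries. Myo1a (chr10:127703436-127720940) had 1.02 and 1.24, then 0.973 and 1.28, then 0.975 and 0.987.

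**Figure D1:**
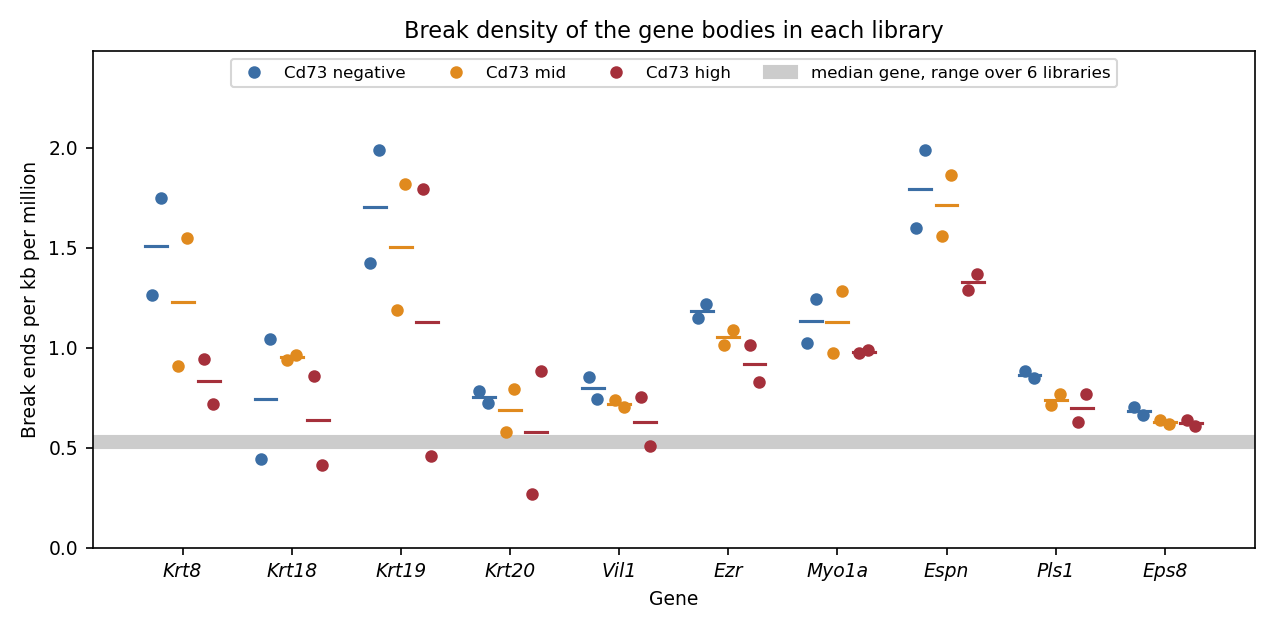
Break density of each gene body (break ends per kb per 1000000 of the library; points are libraries, bars the mean of 2) by Cd73 gate, with the range of the median gene over the 6 libraries in grey. Espn lies at 1.29 or more in every library, whereas Eps8 stays between 0.612 and 0.704.

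In the negative gate the order of mean densities was Espn (1.79 ± 0.276, SD, n = 2), Krt19 (1.71 ± 0.399), Krt8 (1.51 ± 0.342), Ezr (1.18 ± 0.0485), Myo1a (1.13 ± 0.155), Pls1 (0.866 ± 0.0263), Vil1 (0.801 ± 0.0767), Krt20 (0.754 ± 0.0431), Krt18 (0.743 ± 0.424) and Eps8 (0.685 ± 0.0269). Of the 9 pairs of neighbours in that order, 7 had overlapping libraries; the steps from Krt8 to Ezr and from Myo1a to Pls1 did not overlap. In the high gate all 9 pairs overlapped. The median gene had between 0.502 and 0.558 break ends per kb per 1000000, and 9, 10, 10, 10, 9 and 8 of the 10 genes lay above it in the negative M1, negative M2, mid M1, mid M2, high M1 and high M2 libraries.

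Each body was also set against the 50 kb on each side of it, which share its chromosomal surroundings. Krt19 had 2.57 ± 0.432 times the density of its flanks in the negative gate (SD, n = 2), Ezr 2.45 ± 0.201 and Krt8 2.03 ± 0.284. Espn followed at 1.81 ± 0.00348, Pls1 at 1.46 ± 0.0433 and Eps8 at 1.44 ± 0.0353. Vil1 was level with its 50 kb flanks at 0.994 ± 0.201, and Krt18 lay at 0.796 ± 0.4001. The median gene lay between 1.05 and 1.11 over the libraries. The median over the 10 genes in the negative gate was 1.45, and it moved beyond its replicate spread with flanks of 20 kb (1.46) or 100 kb (1.59). Single genes depended more on the width. With 20 kb flanks in the negative gate, Krt19 fell to 2.15, Ezr to 2.09, Krt8 to 1.52 and Espn to 1.51. Pls1 fell to 1.03, Krt20 from 1.13 to 0.964 and Vil1 to 0.769. Krt18 rose to 0.904, Eps8 to 1.51 and Myo1a from 1.23 to 1.55. With 100 kb flanks Ezr rose to 3.31. With 50 kb flanks, the mean ratio was higher in the high than in the negative gate for Krt18 (0.992) and Myo1a (1.32). It was lower for the other genes. Eps8 had 1.14 ± 0.00702 in the high gate, where its flanks held 86 and 68 break ends. The median gene had 1.08 and 1.05 in the high libraries, beside 1.10 and 1.11 in the negative ones. These differences were not tested.

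**Figure D2:**
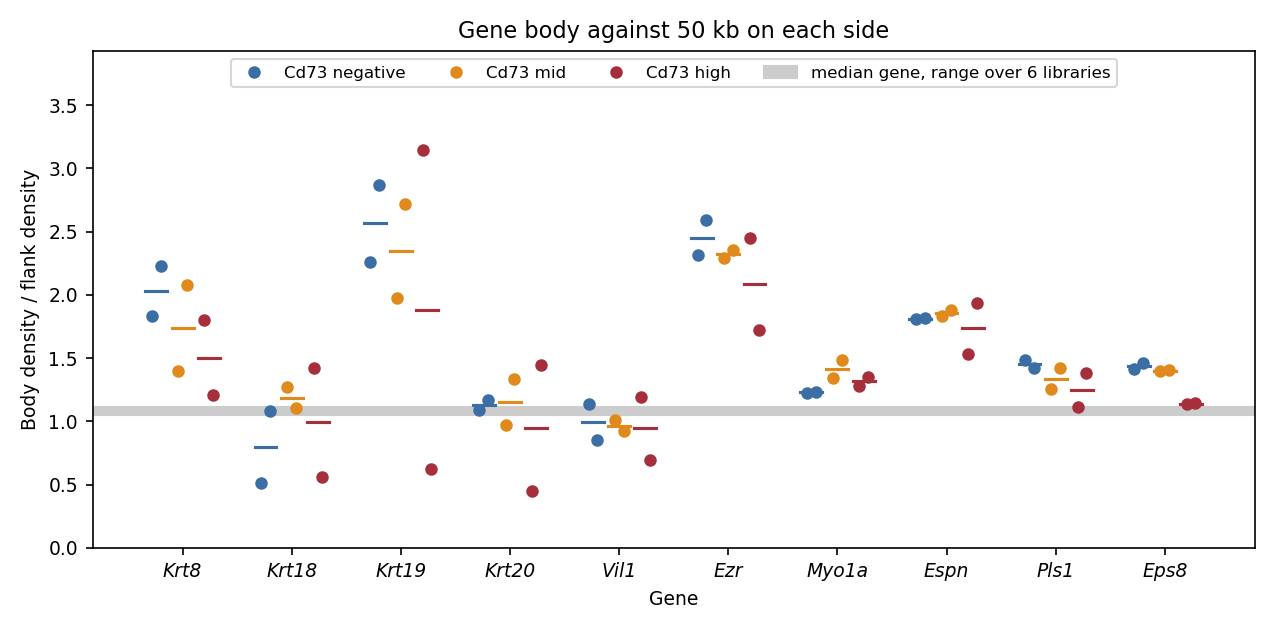
Break density of each gene body divided by that of the 50 kb on each side, leaving out 1 kb next to the body (points are libraries, bars the mean of 2), with the range of the median gene over the 6 libraries in grey. Krt8, Ezr, Myo1a, Espn, Pls1 and Eps8 lie above the grey band in every library, and the high libraries of Krt18, Krt19, Krt20 and Vil1 lie on both sides of it.

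No change between the gates was called for any of these genes. In the high against the negative gate, 0 of 10 bodies passed an adjusted p of 0.05 in edgeR's quasi-likelihood test with Benjamini-Hochberg adjustment over 17809 bodies, where 0.00562% of all bodies passed. At an unadjusted p under 0.05 there was 1 of 10 by edgeR and 0 by DESeq2, against 8.75% of all bodies by edgeR. All 10 log2 fold changes were below 0, against 50.3% of all bodies, with a median of -0.21 beside -0.0022 over all bodies. This count was 7 of 10 after removing each library's trend of counts with break density, 6 of 9 tested with every library at equal depth, and 6 of 10 without the high M2 library.

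Krt8 had the lowest value, a log2 fold change of -0.71 (SE 0.36, 95% interval -1.41 to -0.01, edgeR adjusted p = 0.566). Counting each position once per library brought it to -0.38 (SE 0.35). Espn, whose high libraries lay below its negative ones, stood at -0.31 (SE 0.17, interval -0.63 to 0.02, edgeR adjusted p = 0.609) and at -0.10 with each position counted once. The best counted gene, Eps8, gave the narrowest interval, from -0.28 to 0.27 around -0.0040. Krt18 gave the widest, from -1.28 to 1.20 around -0.04, so a change of 2-fold in either direction lies within it.

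The other 6 genes lay between Krt19 at -0.40 (SE 0.38) and Myo1a at -0.08 (SE 0.24). Krt20 stood at -0.33 (SE 0.41), Ezr at -0.23 (SE 0.17), Vil1 at -0.20 (SE 0.24) and Pls1 at -0.19 (SE 0.15). Without the high M1 library Ezr stood at -0.38 and Pls1 at -0.033, without high M2 at -0.12 and -0.35, and without negative M1 Pls1 stood at -0.12. Espn moved to -0.18 without the negative M2 library. With each library's density trend removed, Ezr stood at -0.070, Espn at -0.071 and Pls1 at -0.12. The values of Krt19 and Krt20 rest on single high libraries: leaving out 1 library at a time moved Krt19 between -1.74 and 0.19 (both without a high library) and Krt20 between -1.38 and 0.36. In CPM scaled with TMM factors, the high libraries lay wholly below the negative ones for 3 of 10 genes (Krt8, Ezr and Espn) and wholly above for 0, where 21% of all bodies lay wholly below and 21.1% wholly above.

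Against the negative gate, 0 of 10 bodies passed in the mid gate (0% of all bodies; unadjusted 0 of 10 by edgeR and by DESeq2, 3.16% of all bodies by edgeR). Krt18 had the highest value, 0.42 (SE 0.37), and Krt8 the lowest, -0.23 (SE 0.22). Of the 10, 8 were below 0, against 49.4% of all bodies, and in CPM the mid libraries lay wholly below the negative ones for 2 (Ezr and Pls1, against 15.9% of all bodies) and wholly above for 0 (15% of all bodies). Between the high and mid gates again 0 of 10 passed (0% of all bodies; unadjusted 0 of 10 by both tools, 4.51% of all bodies by edgeR), and 9 of 10 were below 0 (49.7% of all bodies), from -0.48 in Krt8 to 0.07 in Eps8. In CPM the high libraries lay wholly below the mid ones for 2 of 10 (Krt18 and Espn, against 17.1% of all bodies) and wholly above for 0 (16.7%). The 3 comparisons share libraries and are not independent of each other. Nt5e, which encodes the sorted marker, had a higher break density in its body in the high than in the negative gate, 0.832 ± 0.202 against 0.597 ± 0.0225 break ends per kb per 1000000 (SD, n = 2), with a log2 fold change of 0.62 (SE 0.19, edgeR adjusted p = 0.324), which did not pass.

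**Figure D3:**
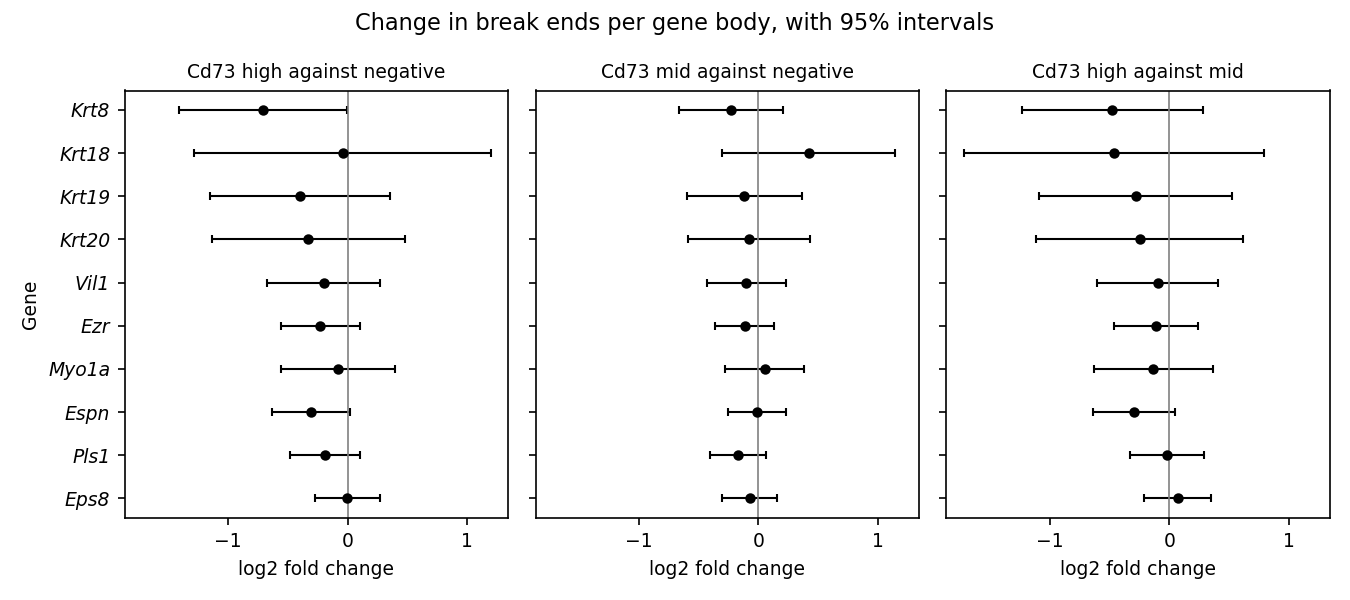
Log2 fold change of break ends per gene body in the 3 comparisons of gates (edgeR; bars are 95% intervals). Only the interval of Krt8 in high against negative ends short of 0, at -0.01, and the widest intervals are those of Krt18.

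In the negative gate all 8 genes with a listed strand had a higher mean density in the 2 kb around the most upstream start than in the body, as the median gene did. This did not hold in every library or gate. Myo1a had 0.799 times the density of its body in the negative M2 library. Espn averaged 0.846 ± 0.0521 times in the mid gate and Myo1a 0.872 ± 0.671 times in the high gate (SD, n = 2). Over all 17492 genes with a listed strand, the 2 kb around the start had a median of 2.23 and 2.40 times the density of the body in the negative libraries. Pls1 had 4.26 ± 0.874 times (SD, n = 2), Ezr 3.19 ± 0.416 and Krt18 2.98 ± 0.441. Vil1 had 1.83 ± 0.497, Krt8 1.43 ± 0.509, Espn 1.27 ± 0.240 at its most upstream start, Myo1a 1.26 ± 0.652 and Krt20 1.17 ± 0.0594. The 2 kb around the Myo1a start lie wholly within its body, since that start is 1820 bases inside it. The ratios of the first 3 lay above that of the median gene and those of the other 5 below it. Among these 5, Espn still had 5.46 break ends per kb per 1000000 in the first 500 bases after its start, beside a mean of 2.50 over all genes, and Krt8 had 4.83 and 6.42 in the bins from 0.5 to 1.5 kb inside.

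The sides of the start differed as well. In the negative gate Ezr had 126 break ends in the 1 kb upstream and 68 in the 1 kb downstream, and Krt18 had 68 and 40. Pls1 leaned the other way with 66 and 122, Krt8 with 32 and 74, and Espn with 22 and 93 at its most upstream start. The innermost Espn start, whose sequence is given above, had 4.196 ± 0.134 break ends per kb per 1000000 over 2 kb in the negative, 4.14 ± 0.0946 in the mid and 2.16 ± 0.273 in the high gate, whereas the middle start had 1.17 ± 0.250 in the negative gate. The 300-base window at the same innermost start went the other way, with 7.40 ± 1.10 in the negative, 9.80 ± 1.99 in the mid and 10.7 ± 0.333 in the high gate. The high values rest on 9 break ends upstream and 3 downstream over 2 kb, and 9 in the 300-base window, so no direction was read from them.

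**Figure D4:**
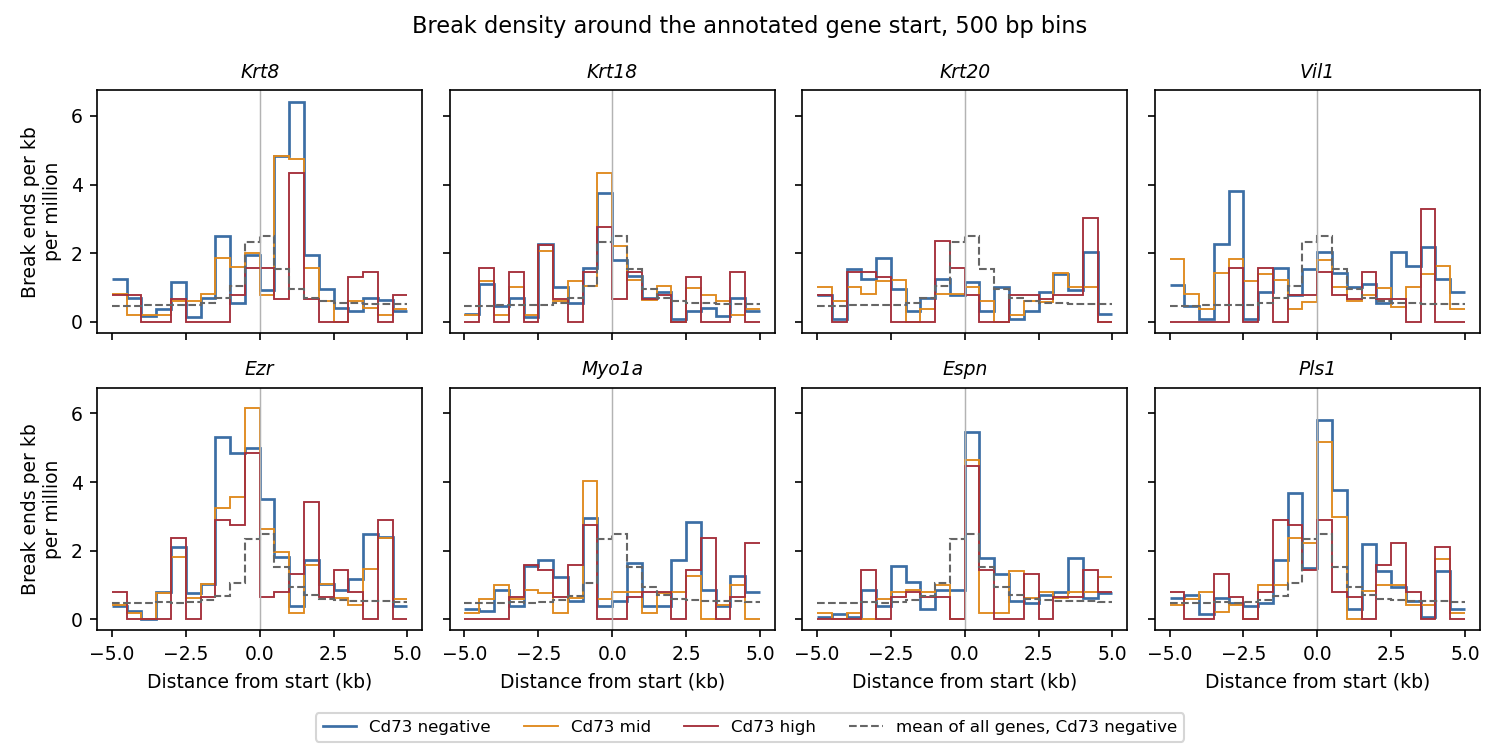
Break density in 500 bp bins from 5 kb before to 5 kb after the most upstream annotated start of the 8 genes with a listed strand, by gate (mean of 2 libraries), with the mean of all genes in the negative gate dashed. The listed Myo1a start lies 1820 bases inside its RefSeq body. In the negative gate Krt8 peaks at 6.42 break ends per kb per 1000000 between 1 and 1.5 kb inside the gene. The same bin has 4.75 in the mid and 4.33 in the high gate. Pls1 peaks in the negative gate at 5.80 in the first bin after the start (5.17 in the mid and 2.88 in the high gate). Ezr stays at 4.86 or more in the negative gate from 1.5 kb before the start up to it. Towards the start, its mid gate has 3.25, 3.55 and 6.17 in these bins. Its high gate has 2.88, 2.76 and 4.86. In the bin next to the start the mid gate therefore lies above the negative gate (4.999). The high values rest on 6 break ends for Krt8, 4 for Pls1, and 4, 4 and 7 for Ezr. No direction between the gates was read from them.

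In a fit over the windows of 1 kb on each side of the starts, 9 of the 10 genes had enough break ends to be tested and Krt20 did not. Of these, 0 passed in high against negative (0% of 14081 windows by edgeR; unadjusted 0 of 9 by edgeR and 0 of 10 by DESeq2, 6.23% of all windows by edgeR). The values ran from -0.48 in Krt8 (SE 0.61) to 0.36 in Eps8 (SE 0.44). Of the 9, 7 were below 0, with a median of -0.18 beside -0.0043 over all windows. Without the high M1 library 5 of 10 were below 0, and without high M2 again 5 of 10. In mid against negative 6 of 9 lay above 0, with a median of 0.15 beside 0.0070 over all windows. In high against mid 5 of 9 lay below 0, with a median of -0.21 beside -0.0071. At the starts 0 of 9 also passed in mid against negative and in high against mid (0% of all windows; unadjusted 0 of 9 in each, against 5.49% and 5.02% of all windows, by edgeR, and 0 of 10 by DESeq2). For Krt19 and Eps8, whose strand is not listed, both gene ends were counted.

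The densest 1 kb of each body was picked as the highest window, so it lies above an even spread by choice and is given as a description. With windows laid from the left edge of each gene, the densest Krt8 window (chr15:102002711-102003710) held 46.6% of the break ends of the gene, where an even spread gives 13.1%, at 5.74 times its median window, centred 1.13 kb inside the start. Krt18 had 52.2% of its break ends in its first kb (even spread 26.2%), which was 1.85 times its median window, and Krt19 42.3% in a window near its right end (even spread 19.5%). In the longer bodies the densest window held little of the gene, 2.66% in Eps8 (even spread 0.581%), 8.55% in Vil1 (3.82%) and 8.76% in Myo1a (5.71%), where it was 1.95 times the median window. These shares depend on where the windows begin: with windows laid from the gene start, a choice made after seeing the data, the densest Krt8 window held 36.0% at 4.12 times the median, and the densest Pls1 window moved from 2.67% of its break ends, 50.1 kb inside, to 5.79% in the first kb. The densest windows of Espn and Ezr also moved, from 13.6 to 23.5 kb and from 40.1 to 24.5 kb inside the start.

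Single bases recurred. The most frequent was chr9:95845002 in Pls1, 277 bases inside the start, with 12 and 18 break ends in the negative, 0 and 5 in the mid, and 0 and 1 in the high libraries. Espn followed with 29 break ends at chr4:152144888 and Ezr with 26 at chr17:6776265, all in the negative and mid libraries. Of the 10 genes, only Espn had positions with a break end in all 6 libraries, and it had 3. Break ends per position with a break were 1.27 and 1.299 over the 10 bodies in the negative libraries, against 1.19 and 1.20 over the whole libraries, and 1.05 and 1.04 in the high ones, against 1.04 and 1.04. At the equal depth of 1272771 break ends a library, the 10 bodies lay between 1.02 and 1.06, and the whole libraries between 1.026 and 1.037. The bodies had 1.038 and 1.046 in the negative libraries, against 1.029 and 1.034 over the whole libraries. They had 1.024 and 1.061 in the mid, against 1.026 and 1.034, and 1.042 and 1.037 in the high, against 1.032 and 1.037.

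Keratin genes that enterocytes do not make offer a comparison within the same family. The 27 annotated keratins of stratified epithelium and hair had median densities of 0.646 and 0.759 break ends per kb per 1000000 in the negative and 0.592 and 0.643 in the high libraries. Krt19 exceeded all 27 in both negative libraries and Krt8 all but 1, Krt1 in M1 and Krt14 in M2 being the densest of the 27. In the high M1 library 0 of the 27 lay above Krt19 and 1 above Krt8. In the high M2 library, where Krt19 had 3 break ends and Krt8 had 7, 18 and 11 of the 27 lay above them. Krt18 was passed by 22 of the 27 in the negative M1 and by 2 in the negative M2 library, and Krt20 by 6 and 15.

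**Figure D5:**
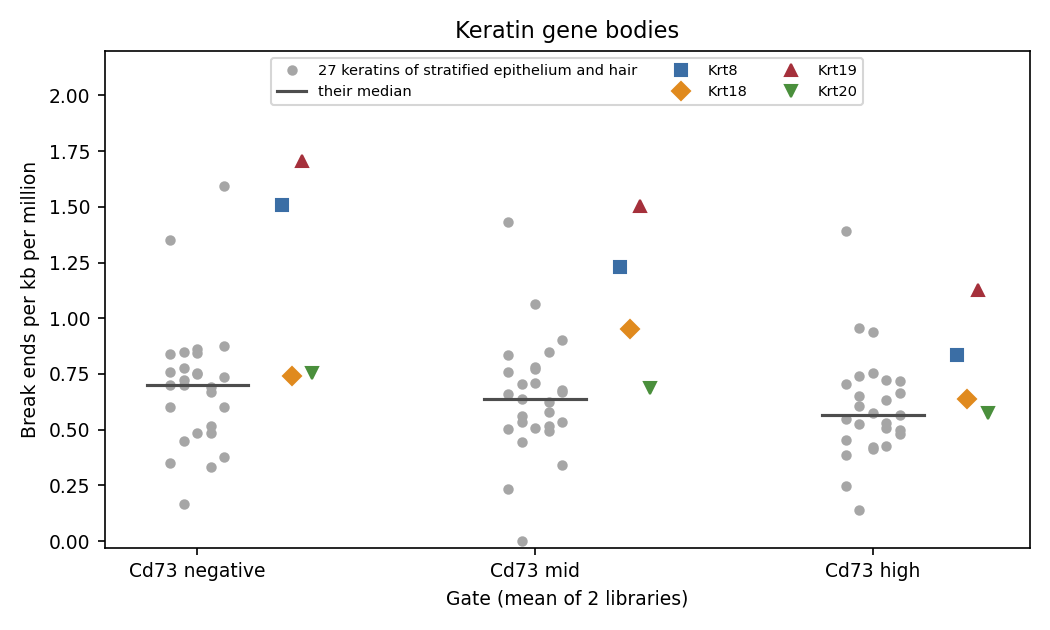
Break density of keratin gene bodies by gate (mean of 2 libraries; break ends per kb per 1000000): grey points are the 27 keratins of stratified epithelium and hair with their median as a line, and coloured symbols are the 4 simple-epithelium keratins. Krt19 lies at 1.71 in the negative and 1.13 in the high gate, where Krt1 lies above it at 1.39. Krt8 lies below the densest grey gene in each gate. It has 1.51 beside Krt14 at 1.59 in the negative and 1.23 beside Krt1 at 1.43 in the mid gate. In the high gate it has 0.834. Krt18 and Krt20 lie among the grey points.

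Other genes of the same structures were read from the same fit, high against negative, and none was called. Of the 24 tested stratified keratins 15 were below 0, with a median of -0.18; the basal-cell keratin Krt14 stood at -1.14 (SE 0.50, edgeR adjusted p = 0.505), Krt79 at -0.72 (SE 0.39) and Krt72 at 0.70 (SE 0.40). A further 4 keratins, listed apart from these, had a median of -0.04, with Krt7 at -0.28, Krt222 at 0.24 and Krt80 at -0.15. The 9 desmosome and plakin genes, which anchor keratin filaments, had a median of 0.01, with Evpl at -0.28, Ppl at -0.17 and Dsp at -0.15.

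Of 25 actin bundling, severing and assembly genes 14 were above 0 (median 0.07), among them the plastin Lcp1 at 0.29 (SE 0.16), the villin relative Avil at 0.39 (SE 0.28) and the capping protein gene Capg at 0.36 (SE 0.26). Of 12 myosins and spectrins of the brush border and terminal web 8 were below 0 (median -0.03), with the non-muscle myosin Myh14 at -0.29 (SE 0.15, edgeR adjusted p = 0.565), Myo7b at -0.28 and Sptan1 at -0.21. The 10 genes of the ezrin family, its scaffolds and kinases had a median of -0.03. Slc9a3r2, an ezrin-binding scaffold, stood at -0.75 (SE 0.36, edgeR adjusted p = 0.543) with 16 and 2 break ends in its high libraries, Slk at 0.26 and Slc9a3r1 at -0.31. The 6 genes of the intermicrovillar adhesion complex, which links microvillus tips, had a median of -0.04, with Anks4b at -0.59 (SE 0.39) and Calml4 at 0.32 (SE 0.35).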

How the data were processed

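Break ends were taken from the deposited files of the 6 enterocyte libraries, in which the authors list a count of break ends per position for each library, without strand and not normalised. Reads were aligned with BWA to GRCm38, per the submitters' processing notes; the sources used here do not give its version, filters or duplicate handling, or say whether a count is of molecules or of reads, so counting error is a lower limit on the error. Libraries of human cells in the series were not used here. Counts were summed over RefSeq gene bodies (GRCm38.p6) and over 1 kb on each side of the starts (both gene ends for the 4395 genes without a listed strand). Density is break ends per kb per 1000000 main-chromosome break ends. The main test was the quasi-likelihood F test of edgeR 4.0.16 under R 4.3.3, after filterByExpr and TMM scaling, on all 6 libraries in a fit of 3 groups, with Benjamini-Hochberg adjustment over all features and an adjusted p under 0.05 called; DESeq2 1.42.0 was an alternative. SE is the size of the log2 fold change over the square root of F. Tested on simulated data for high against negative, the fit recovered 18%, 52%, 78% and 90% of bodies changed by 1.5, 2, 3 and 4-fold (17809 bodies), and 2%, 8%, 44% and 48% of start windows (14081). There were 3 false calls among the bodies and 1 among the start windows. The changed features were drawn at random, and all had the same dispersion (0.0066 for bodies, 0.0064 for start windows). The rates are therefore not those of these 10 genes, some of which had few break ends. All 10 members are named; of each related list, genes called or otherwise the 3 with the smallest unadjusted p, high against negative, and Nt5e. The members, lists and alternatives were chosen with earlier results of these data known. The first choice of 1 kb windows, from the left edge of the gene, was kept as the main one after a second was tried.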

Additional observations from a re-analysis of the deposited data

How the results depend on the processing

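The count of these genes called stayed at 0 in 67 combinations of comparison and alternative setting. These cover the bodies in every comparison, but the start windows only in high against negative. Few features were called over all genes in these settings. The most was 44 of 17809 bodies, in high against negative with the library number as a replicate block. A count of 0 therefore says little about these genes. The signs of single log2 fold changes, high against negative, depended on the setting for some genes. They turned above 0 with the density trend removed for Myo1a (0.088), Krt18 (0.053) and Eps8 (0.021), at equal depth for Krt20 (0.017), Krt19 (0.22) and Pls1 (0.016), and with 1 kb added on each side of the body for Krt20 (0.12), Krt18 (0.0077) and Eps8 (0.012). Leaving out 1 library at a time gave ranges of -0.52 to 0.013 for Vil1, -0.18 to 0.021 for Myo1a, -1.38 to 0.36 for Krt20, -1.74 to 0.19 for Krt19, -0.70 to 0.64 for Krt18 and -0.083 to 0.072 for Eps8; the range was -0.92 to -0.50 for Krt8, -0.38 to -0.12 for Ezr, -0.42 to -0.18 for Espn and -0.35 to -0.033 for Pls1. With the density trend removed, Krt8 stood at -0.52, Espn at -0.071, Ezr at -0.070 and Pls1 at -0.12. The cause was not tested. Krt18 could not be tested at equal depth.

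The labels number the libraries M1 and M2 in each gate. Over 17809 bodies the M1 minus M2 differences correlated at 0.34 between the negative and mid gates. The correlation was -0.04 between negative and high and -0.05 between mid and high, where the high libraries are the shallowest. These values do not decide whether the numbers mark pairs, and the main fit did not take them as pairs. With the number as a replicate block, 44 bodies were called over all genes in high against negative (39 higher, 5 lower) in place of 1, 0 of the 10 genes among them, and Krt18 stood at 0.00083. Over all bodies 4 were called with the density trend removed, 2 without the negative M1 library, and 0 at equal depth, with no filter, or without any of the high M1, high M2 and negative M2 libraries.

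The median ratio of body to flanks in the negative gate, 1.45, was 1.46 with 20 kb flanks, 1.59 with 100 kb flanks and 1.40 with each position counted once. An alternative chosen after seeing the data, laying 1 kb windows from the gene start, moved the share of break ends in the densest window beyond its exact 95% binomial interval for Krt8 (46.6% to 36.0%) and Pls1 (2.67% to 5.79%). The thinned break ends per position were also added after seeing the data. In the high gate Krt18, Krt19 and Krt20 had between 2 and 14 break ends a library, which limits what their comparisons can show.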
